A study of Mus musculus with 21 samples.

Results

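Dux encodes a double homeobox transcription factor that switches on genes of the mouse 2-cell stage embryo, and most embryonic stem cells keep it silent. The results below follow 10 genes whose proteins act upstream of Dux: Trim28, Setdb1, Lin28a, Smchd1, Chaf1a, Chaf1b, Dppa2, Dppa4, Zmym2 and Rif1. They were chosen by name as known regulators of Dux. The deposited table lists 20900 genes; all 10 regulators were in it and all 10 were among the 14666 genes expressed highly enough to be tested. Dux itself met that expression filter only through libraries of treated cells.

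Several of these proteins work on chromatin. TRIM28 is a co-repressor that zinc finger proteins bring to DNA and that recruits SETDB1, the enzyme that methylates lysine 9 of histone H3. CHAF1A and CHAF1B are subunits of CAF-1, the chaperone that deposits histones behind the replication fork, and loss of CAF-1 moves stem cells towards a 2-cell-like state. SMCHD1 is a non-canonical SMC protein of the inactive X chromosome and of silenced repeat arrays, RIF1 controls replication timing and heterochromatin, and ZMYM2 is a zinc finger protein that binds SUMO and the LSD1 co-repressor. LIN28A is an RNA-binding protein, known for blocking let-7 maturation, that has also been placed with TRIM28 and nucleolin in a nucleolar complex that represses Dux. DPPA2 and DPPA4, by contrast, are a pair of small DNA-binding proteins of pluripotent cells that are needed to activate Dux.

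The cells were E14, a mouse embryonic stem cell line of 129 strain origin, grown in serum with LIF. BMH-21 or CX-5461, compounds that block RNA polymerase I and with it the synthesis of the large ribosomal RNA precursor, was added at 1 µM and cells were collected after 2, 4 or 8 h. A single 0 h control group, called untreated here, served both inhibitors. Whether it received a vehicle is not given in the sources used here. There was no control at 2, 4 or 8 h, so in differences from untreated the inhibitor and the elapsed time cannot be told apart. With 3 libraries of poly(A) RNA in each of the 7 groups there were 21 libraries, all from this line. Nothing in the labels says that the 3 libraries of a group came from separate cultures, so p-values measure only the spread between these libraries, which may be technical.

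Each library held between 46604397 and 62812641 reads in genes. Each regulator was covered by 2393 to 161757 reads in every library, and the median SD between the 3 libraries of a group was 0.04 on the log2 scale. The widest was 0.20, for Rif1 after 8 h of BMH-21, where replicate 2 was the lowest library. Values are log2 CPM (reads relative to library size) after each library was centred on its median gene (centred log2), because the deposited scaling moved that median against untreated by -0.08, -0.15 and -0.21 at 2, 4 and 8 h of BMH-21 and by -0.15, -0.16 and 0.22 at 2, 4 and 8 h of CX-5461. "Fell" and "rose" are used for a limma test with a Benjamini-Hochberg adjusted p under 0.05 over all 14666 genes. In these pooled cells, fewer cells of a kind and less RNA per cell cannot be told apart.

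All 8 embryonic stem cell markers were abundant, with 18547 to 78440 reads each in untreated libraries. Their summed level was 12.58 to 12.61 (log2) in untreated libraries. It was 11.86 to 11.98 and 11.58 to 11.79 at 4 and 8 h of BMH-21. With CX-5461 it was 11.90 to 11.93 at 4 h and 12.17 to 12.19 at 8 h. The summed level of 8 markers of 2-cell-like cells was 4.47 to 4.50 in untreated libraries. It was 4.85 to 5.09 and 6.70 to 7.05 at 4 and 8 h of BMH-21. With CX-5461 it was 4.42 to 4.71 at 4 h, overlapping the untreated libraries, and 5.44 to 5.69 at 8 h. Trophoblast markers summed to 6.25 to 6.31 in untreated libraries and to 6.08 to 6.14 and 7.55 to 7.61 at 4 and 8 h of BMH-21. With CX-5461 they summed to 5.91 to 5.97 at 4 h and 6.84 to 7.003 at 8 h. Fibroblast markers summed to 5.06 to 5.12 in untreated libraries, 5.68 to 5.77 and 5.57 to 5.71 at 4 and 8 h of BMH-21, and 5.22 to 5.40 and 5.30 to 5.39 at 4 and 8 h of CX-5461. Primitive endoderm markers summed to 3.38 to 3.53 in untreated libraries, 4.31 to 4.41 and 4.22 to 4.26 at 4 and 8 h of BMH-21, and 3.95 to 4.01 and 3.62 to 3.74 at 4 and 8 h of CX-5461. Col3a1 and Dcn (fibroblast), Elf5 (trophoblast) and Zfp352 (2-cell-like) stayed under the expression filter. Members of a list did not all move alike, so a sum can follow few genes. Pdgfra reached 685 reads (untreated 94 to 119), while Gata4 went down to 93 (141 to 170) and Sox7 to 54 (127 to 143). Col1a1 reached 2551 (370 to 436) and Krt7 4413 (85 to 103), while Thy1 went down to 534 (1011 to 1093). Tdgf1 reached 62592 (42280 to 46417), while Zfp42 went down to 11788 (44108 to 52173). The part of these shifts in the results below was not tested.

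Scaled by the length of their exons, untreated levels spanned a wide range. Trim28 stood highest, at 9.55 ± 0.06 (log2 per kilobase, SD, n = 3), followed by Lin28a at 7.30 ± 0.01 and Dppa4 at 6.79 ± 0.06. Dppa2 followed at 6.00, Rif1 at 5.46 and Setdb1 at 4.89, and Zmym2 (3.93) and Smchd1 (2.07 ± 0.07) were lowest. Chaf1b (4.47 ± 0.01) and Chaf1a (4.44 ± 0.14) lay between them. The length used was that of all annotated exons of a gene, 8854 bases for Chaf1a and 4681 for Chaf1b. For Chaf1a, 4648 of these bases overlap exons of Ubxn6, so its level per kilobase depends on the annotation. The SD between libraries does not measure that. After 8 h of BMH-21 the order had changed: Lin28a had moved from rank 2 to rank 5, at 4.41 ± 0.14 per kilobase, beside Chaf1a at 4.33 ± 0.02, while Trim28 was still highest at 7.92 ± 0.09.

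The genes lie on 7 chromosomes of the GRCm38 (mm10) assembly, with positions from GENCODE M21. Trim28 is at chr7:12999114-13031035, Setdb1 at chr3:95323525-95357202, Lin28a at chr4:134003330-134018841, Smchd1 at chr17:71344489-71475343 and Chaf1a at chr17:56040439-56072289. Chaf1b is at chr16:93883901-93906115, Zmym2 at chr14:56886653-56962701 and Rif1 at chr2:52072832-52122383. Dppa4 (chr16:48283733-48294237) and Dppa2 (chr16:48303908-48319723) are neighbours on the plus strand of chromosome 16. In that annotation, 4648 exon bases of Chaf1a (52.5%) overlap exons of Ubxn6 on the opposite strand. Whether reads were counted by strand is not given in the sources used here, so in this stretch reads of the 2 genes cannot be told apart. Setdb1 shares 75 exon bases with Cers2 and 249 with Gm37500, and Lin28a shares 234 with Gm13061, all on the opposite strand.

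Promoter windows of 300 bases (250 before to 50 after the start site, RefSeq, GRCm38.p6) were at hand for 7 of the 10 genes. For Trim28 the RefSeq start (chr7:13024152) lies inside the GENCODE span given above, so its window is not at the GENCODE start. Those of Lin28a and Trim28, whose transcripts fell furthest, and of the CAF-1 pair Chaf1a and Chaf1b, whose transcripts separated, are shown 5′ to 3′ on the strand of the gene. Capitals mark every match, on either strand, to the CCAAT box, whose letters are its name, and to 3 further motifs. Of these, GGGCGG is the GC box recognized by SP and KLF zinc finger proteins. The E-box, read by proteins of the MYC family among others, was searched as CACGTG. For the core of sites of ETS family proteins the letters were CCGGAAG. No matches overlap in the windows shown.
Lin28a, chr4:134018767-134019066, minus strand: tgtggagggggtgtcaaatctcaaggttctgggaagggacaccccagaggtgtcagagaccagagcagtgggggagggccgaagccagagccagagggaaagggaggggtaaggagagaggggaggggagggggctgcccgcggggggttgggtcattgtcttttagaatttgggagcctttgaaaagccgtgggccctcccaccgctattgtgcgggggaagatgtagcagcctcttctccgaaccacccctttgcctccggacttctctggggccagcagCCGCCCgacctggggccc
Trim28, chr7:13023902-13024201, plus strand: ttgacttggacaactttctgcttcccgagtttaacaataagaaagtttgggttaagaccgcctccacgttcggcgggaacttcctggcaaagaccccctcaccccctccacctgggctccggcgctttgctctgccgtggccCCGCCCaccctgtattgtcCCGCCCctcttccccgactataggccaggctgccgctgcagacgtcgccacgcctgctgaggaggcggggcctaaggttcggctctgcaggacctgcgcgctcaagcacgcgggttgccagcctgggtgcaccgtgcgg
Chaf1a, chr17:56040166-56040465, plus strand: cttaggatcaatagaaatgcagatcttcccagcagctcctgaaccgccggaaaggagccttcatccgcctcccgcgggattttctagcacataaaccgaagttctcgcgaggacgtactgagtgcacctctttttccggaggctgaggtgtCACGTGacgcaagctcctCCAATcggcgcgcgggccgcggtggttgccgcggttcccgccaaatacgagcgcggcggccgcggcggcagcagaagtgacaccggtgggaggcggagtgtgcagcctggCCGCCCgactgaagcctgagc
Chaf1b, chr16:93883651-93883950, plus strand: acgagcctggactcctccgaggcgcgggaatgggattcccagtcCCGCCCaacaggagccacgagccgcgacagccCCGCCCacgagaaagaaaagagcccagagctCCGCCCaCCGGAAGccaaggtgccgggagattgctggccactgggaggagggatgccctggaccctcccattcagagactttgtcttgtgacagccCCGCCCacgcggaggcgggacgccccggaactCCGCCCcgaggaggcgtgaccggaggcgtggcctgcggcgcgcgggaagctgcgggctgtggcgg
Lin28a had 1 GC box and Trim28 had 2, with no other match. Chaf1a had 1 GC box, 1 CCAAT box and 1 E-box, and Chaf1b had 5 GC boxes and 1 ETS core. A GC box occurs in 35.7% of the 32851 promoter windows of the same length, a CCAAT box in 37.4%, an E-box in 7.15% and an ETS core in 8.86%. The windows also differed in CpG content, with 10 CpG in Lin28a, 23 in Trim28, 32 in Chaf1a and 30 in Chaf1b against a median of 7 over all windows. A match describes letters in a window and not a factor bound there.

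The regulators were read beside Dux, whose reads were few. The 3 untreated libraries held 8, 11 and 3 Dux reads. After BMH-21 there were 22, 12 and 22 reads at 2 h, 150, 148 and 138 at 4 h, and 282, 420 and 428 at 8 h. After CX-5461 there were 19, 20 and 13 reads at 2 h, 117, 74 and 105 at 4 h, and 101, 106 and 91 at 8 h. Every treated library held more Dux reads than every untreated one, but at 2 h the margin was small (lowest 12 and 13, against 11). As deposited, CX-5461 replicate 3 at 2 h (-2.11) lay below untreated replicate 2 (-1.98). Since Dux entered the fit only through treated libraries, its differences from untreated are given as a description with no test: 1.47, 4.34 and 5.38 (log2) at 2, 4 and 8 h of BMH-21, and 1.31, 3.71 and 3.57 after CX-5461. The 2 h differences depend on how low values are treated, at 0.54 and 0.34 for BMH-21 and CX-5461 after quantile normalization and 0.08 and 0.15 with values below 0 set to 0. From 4 to 8 h Dux rose on with BMH-21 (1.03 ± 0.32, adjusted p 0.0057) but its difference with CX-5461 was -0.14 ± 0.32 (adjusted p 0.73).

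Most of the regulators fell with both inhibitors, repressors and activators alike, and none rose in the 6 comparisons with untreated cells. At 2 h, 5 of the 10 fell with BMH-21, where 36.0% of all genes tested passed (17.5% lower), and 6 of the 10 with CX-5461, where 33.6% passed (17.8% lower). At 4 h, 9 of the 10 fell with each inhibitor, against 73.6% of all genes passing with BMH-21 (41.5% lower) and 74.2% with CX-5461 (45.7% lower). At 8 h the count was again 9 of the 10, against 84.6% with BMH-21 (51.3% lower) and 74.0% with CX-5461 (44.7% lower). The gene that passed in none of the 6 comparisons was Chaf1a.

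In size, the regulators' median log2 fold change was -0.13, -0.54 and -0.84 at 2, 4 and 8 h of BMH-21, where the median over all genes tested was 0.0010, -0.06 and -0.19. With CX-5461 it was -0.16, -0.56 and -0.42, beside -0.03, -0.12 and -0.11 for all genes. Falls of at least 2-fold were reached by 3 of the 10 at 4 h and 4 of the 10 at 8 h of BMH-21, where 5.42% and 11.6% of all genes did so. With CX-5461, 2 of the 10 did so at 4 h and 2 at 8 h, beside 3.35% and 1.15% of all genes. As the plot of Dux and its regulators by library shows, the 10 profiles differed in shape more than these counts convey.

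**Figure D1:**
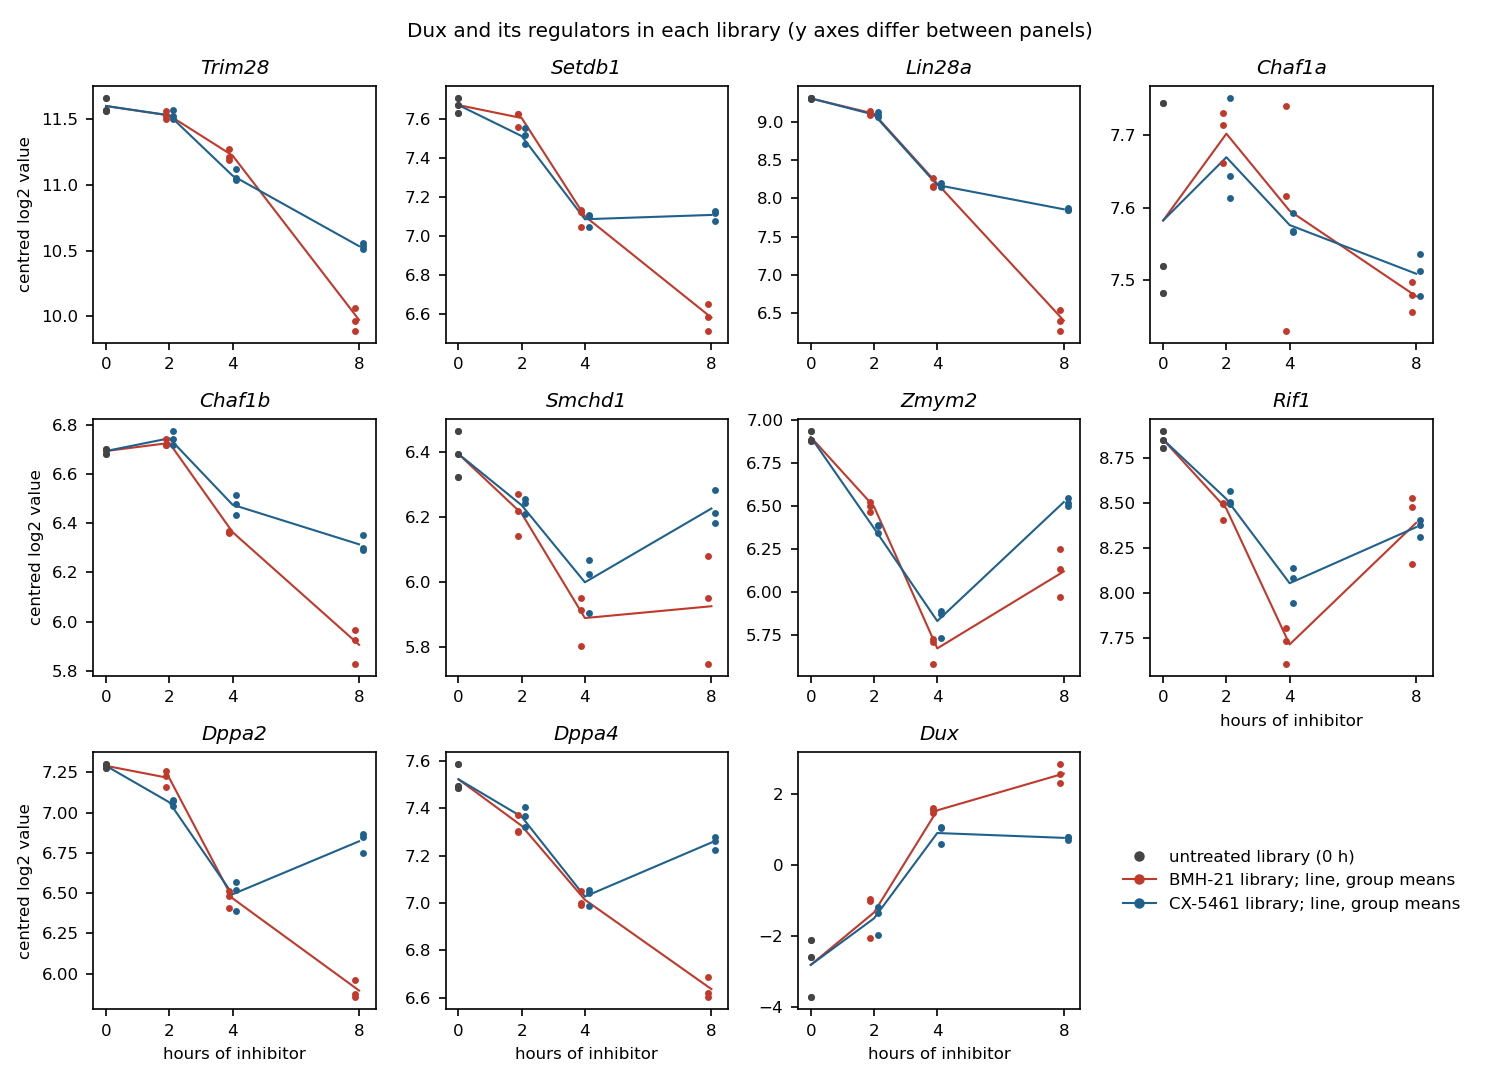
Centred log2 value (y axis, a separate scale in each panel) of the 10 regulators and Dux against hours of inhibitor (x axis); points are single libraries, 3 per group, and lines join group means of BMH-21 (red) and CX-5461 (blue), which share the untreated libraries (grey). Lin28a, Trim28 and Chaf1b were lowest at 8 h with both inhibitors, Zmym2 and Rif1 were lowest at 4 h, and Dppa2 and Dppa4 parted between the inhibitors after 4 h.

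**Figure D2:**
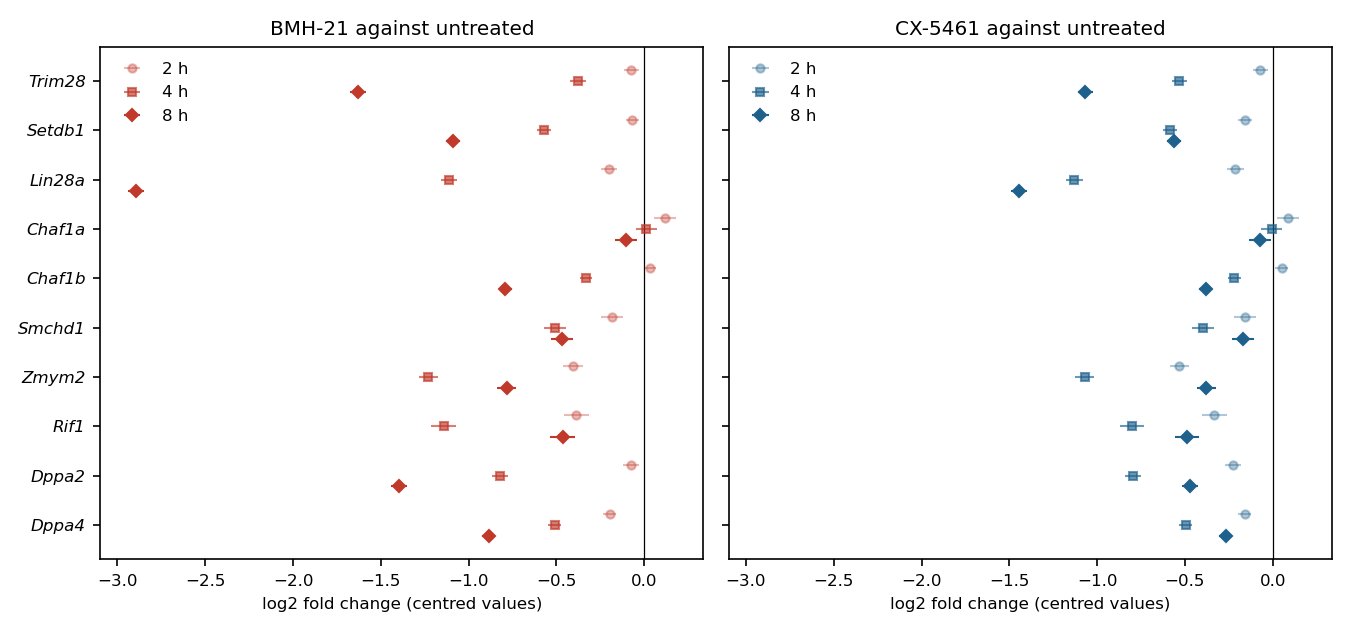
Log2 fold change against untreated (x axis, centred values) of each regulator (y axis) at 2, 4 and 8 h; symbols are fitted values of 3 against 3 libraries and bars are ± 1 SE. Lin28a at 8 h of BMH-21 (-2.90) is the furthest from 0, and Chaf1a ranges from -0.10 to 0.12 over the 6 comparisons.

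Trim28 had the lowest fold change at 8 h after Lin28a with both inhibitors. Its untreated libraries read 11.58, 11.67 and 11.57 (centred log2). After BMH-21 they read 11.56, 11.52 and 11.50 at 2 h, 11.19, 11.21 and 11.27 at 4 h, and 9.96, 10.07 and 9.89 at 8 h. After CX-5461 they read 11.50, 11.53 and 11.57 at 2 h, 11.13, 11.04 and 11.05 at 4 h, and 10.56, 10.51 and 10.54 at 8 h. The 4 h and 8 h libraries of both inhibitors lay below every untreated library, while the 2 h libraries of CX-5461 overlapped them. At 2 h it stood at -0.07 ± 0.04 (log2 fold change, SE) under either inhibitor, which did not pass the test (adjusted p 0.22 and 0.23) but did after quantile normalization (-0.14 and -0.10 for BMH-21 and CX-5461, adjusted p 0.0052 and 0.036). Trim28 fell by 0.38 and 0.53 on the log2 scale at 4 h of BMH-21 and CX-5461, and by 1.63 ± 0.04 and 1.07 ± 0.04 at 8 h (adjusted p 3.1e-20 and 5.5e-16). At 8 h it was thus at 32.3% of the untreated level with BMH-21 and 47.7% with CX-5461. Only 0.95% of all genes tested had a lower fold change at 8 h of CX-5461, and 3.12% at 8 h of BMH-21.

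Setdb1, the methyltransferase that TRIM28 recruits, followed another course. Untreated libraries read 7.67, 7.71 and 7.63; at 4 h they read 7.12, 7.13 and 7.05 under BMH-21 and 7.05, 7.10 and 7.11 under CX-5461. At 8 h they read 6.65, 6.51 and 6.58 under BMH-21 and 7.08, 7.12 and 7.13 under CX-5461. The 4 h groups therefore overlapped, and the 8 h groups lay apart. Setdb1 fell by 0.57 and 0.59 on the log2 scale at 4 h of BMH-21 and CX-5461, then fell by a further 0.52 ± 0.04 from 4 to 8 h of BMH-21 (adjusted p 3.8e-11). With CX-5461 the step from 4 to 8 h was 0.02 ± 0.04 (adjusted p 0.65), whereas it passed as a rise on the deposited values (0.40, adjusted p 9.1e-04) and after quantile normalization (0.14, adjusted p 0.0045). Within each library, Trim28 exceeded Setdb1 by 3.93 ± 0.03 (log2 difference, SD, n = 3) in untreated cells and by 3.39 ± 0.14 and 3.43 ± 0.05 at 8 h of BMH-21 and CX-5461. This gap had not narrowed at 4 h, where it was 4.13 ± 0.09 and 3.99 ± 0.08.

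Lin28a had the largest change of the 10. Its untreated libraries read 9.31, 9.30 and 9.29. With BMH-21 they read 9.08, 9.13 and 9.09 at 2 h, 8.15, 8.26 and 8.16 at 4 h, and 6.54, 6.41 and 6.27 at 8 h. With CX-5461 they read 9.06, 9.09 and 9.13 at 2 h, 8.15, 8.20 and 8.17 at 4 h, and 7.87, 7.85 and 7.85 at 8 h. All 18 treated libraries lay below the untreated ones, and at 2 and 4 h the inhibitors overlapped. Lin28a fell by 0.20 and 0.21 on the log2 scale at 2 h of BMH-21 and CX-5461 (adjusted p 0.0016 and 9.7e-04), by 1.11 and 1.13 at 4 h, and by 2.90 ± 0.05 and 1.45 ± 0.05 at 8 h (adjusted p 2.4e-24 and 6.2e-18). It stood at 13.4% of the untreated level after 8 h of BMH-21 and at 36.7% after 8 h of CX-5461. Only 0.25% and 0.24% of all genes tested had a lower fold change in those comparisons. The range of its 7 group means, 2.90, was wider than that of 94.0% of all genes.

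The subunits of CAF-1 separated. Chaf1b, the smaller of these subunits, read 6.70, 6.68 and 6.70 in untreated libraries and 6.37, 6.36 and 6.36 at 4 h of BMH-21. It read 5.93, 5.96 and 5.83 at 8 h of BMH-21, 6.52, 6.44 and 6.48 at 4 h of CX-5461 and 6.30, 6.35 and 6.29 at 8 h of CX-5461. These 4 groups lay below the untreated libraries, whereas both 2 h groups lay slightly above them without passing the test (0.03 and 0.05, adjusted p 0.53 and 0.30). Chaf1b fell by 0.33 and 0.79 on the log2 scale at 4 and 8 h of BMH-21 and by 0.22 and 0.38 at 4 and 8 h of CX-5461 (adjusted p 1.7e-08, 9.4e-16, 9.5e-06 and 2.1e-09). After quantile normalization its call at 4 h of CX-5461 was lost (-0.05, adjusted p 0.28).

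Chaf1a did not pass the test at any time. Untreated libraries read 7.52, 7.48 and 7.74, and 8 h libraries read 7.46, 7.50 and 7.48 under BMH-21 and 7.48, 7.54 and 7.51 under CX-5461. The groups overlapped, and the untreated libraries themselves were spread by the high replicate 3. Its 8 h estimates were -0.10 for BMH-21 (95% interval -0.23 to 0.02) and -0.07 for CX-5461 (-0.20 to 0.05). A call for Chaf1a appeared on leaving out an untreated library: 0.20 and 0.17 at 2 h of BMH-21 and CX-5461 without untreated replicate 3 (adjusted p 0.011 and 0.032), and -0.15 at 8 h of BMH-21 without untreated replicate 2 (adjusted p 0.037). Scaling set both its sign and its calls. At 8 h of BMH-21 Chaf1a was -0.32 as deposited (adjusted p 0.0038) but 0.24 after quantile normalization (adjusted p 7.3e-04), which also called it higher at 4 and 8 h of CX-5461 (0.19 and 0.26, adjusted p 0.0056 and 5.5e-04). With no filter it was called lower at 4 and 8 h of BMH-21 (-0.17 and -0.41, adjusted p 0.016 and 1.5e-06) and of CX-5461 (-0.23 and -0.34, adjusted p 0.0023 and 2.4e-05). Ubxn6, which shares exon bases with it on the other strand, read 5.43 to 5.44 in untreated libraries and changed by 0.21 and 0.15 at 4 and 8 h of BMH-21 (adjusted p 0.0013 and 0.013) and by -0.20 at 8 h of CX-5461 (adjusted p 0.0018).

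The difference between the 2 subunits inside a library is the same in any scaling that shifts each library by 1 constant, which the centred, deposited and median-ratio scalings do. Chaf1a exceeded Chaf1b by 0.82, 0.80 and 1.04 (log2) in the untreated libraries. At 4 and 8 h of BMH-21 the difference averaged 1.23 ± 0.16 and 1.57 ± 0.07 (SD, n = 3), and at 4 and 8 h of CX-5461 1.10 ± 0.04 and 1.19 ± 0.02. All 12 of these libraries lay above the 3 untreated ones, while the 2 h libraries overlapped them. Reads of Ubxn6 could enter the Chaf1a row under any scaling, and their part in this difference was not tested. The fold change of Chaf1a exceeded that of Chaf1b by 0.34 and 0.69 at 4 and 8 h of BMH-21 and by 0.21 and 0.31 at 4 and 8 h of CX-5461, and after quantile normalization by 0.34, 0.82, 0.24 and 0.40.

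**Figure D3:**
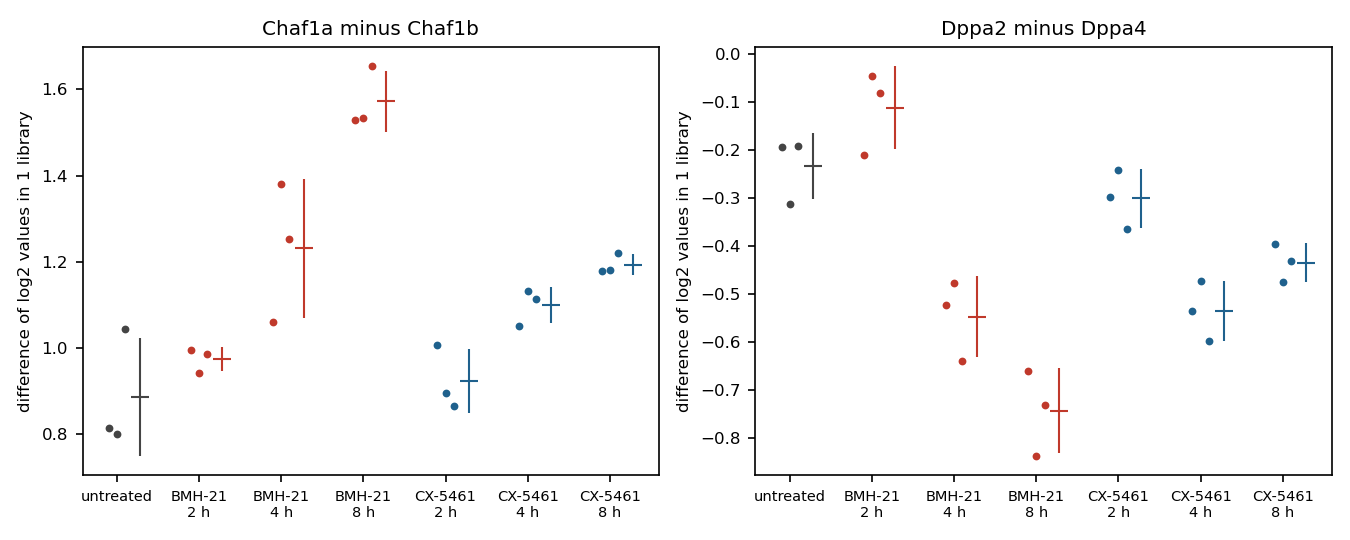
Difference between 2 partner genes in the same library (y axis, log2) for Chaf1a minus Chaf1b (left) and Dppa2 minus Dppa4 (right) in the 7 groups (x axis); points are libraries, and horizontal marks with bars are mean ± SD of 3. Chaf1a minus Chaf1b went from a mean of 0.89 in untreated cells to 1.57 at 8 h of BMH-21, and Dppa2 minus Dppa4 went from -0.23 to -0.74.

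Smchd1 changed least among the regulators that passed a test. Untreated libraries read 6.39, 6.47 and 6.32. At 4 h BMH-21 libraries read 5.91, 5.95 and 5.80 and CX-5461 libraries 5.90, 6.03 and 6.07, below every untreated library. At 8 h they read 6.08, 5.75 and 5.95 under BMH-21 and 6.21, 6.28 and 6.18 under CX-5461. Smchd1 fell by 0.51 ± 0.06 and 0.40 ± 0.06 on the log2 scale at 4 h of BMH-21 and CX-5461 (adjusted p 1.5e-07 and 6.1e-06). At 8 h of BMH-21 it was still lower by -0.47, while at 8 h of CX-5461 it was at -0.17 ± 0.06 (adjusted p 0.020), after a rise of 0.23 from 4 h (adjusted p 0.0038). This last call against untreated was lost without untreated replicate 2 (-0.13, adjusted p 0.098), without CX-5461 replicate 1 (-0.16, adjusted p 0.052) or without CX-5461 replicate 3 (-0.15, adjusted p 0.075), and with median-ratio factors (-0.07, adjusted p 0.35) or a filter at a log2 of 3 (-0.09, adjusted p 0.21). The call at 2 h of BMH-21 (-0.18, adjusted p 0.026) was lost on leaving out untreated replicate 1 or 2 or BMH-21 replicate 1 or 3 (-0.15 to -0.19, adjusted p 0.054 to 0.12), on the deposited values (-0.26, adjusted p 0.10) and with no variance trend (-0.18, adjusted p 0.053). At 2 h of CX-5461 Smchd1 was at -0.16 without a call (adjusted p 0.058), and there it passed as deposited (-0.30, adjusted p 0.035), with no filter (-0.17, adjusted p 0.048) and when only the groups compared were fitted (-0.16, adjusted p 0.0064).

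Zmym2 and Rif1 shared a dip at 4 h. Zmym2 read 6.94, 6.88 and 6.89 in untreated libraries. With BMH-21 it read 6.46, 6.52 and 6.50 at 2 h, 5.71, 5.73 and 5.58 at 4 h, and 6.25, 5.97 and 6.13 at 8 h. With CX-5461 it read 6.34, 6.39 and 6.38 at 2 h, 5.73, 5.87 and 5.89 at 4 h, and 6.55, 6.52 and 6.50 at 8 h. On these centred values the 4 h libraries of each inhibitor were below all its 2 h and 8 h libraries, and every treated library was below the untreated ones. As deposited, CX-5461 replicate 1 at 8 h (6.88) lay above untreated replicate 3 (6.85). BMH-21 replicate 1 at 4 h (5.79) then lay above BMH-21 replicate 2 at 8 h (5.69). Zmym2 fell by 0.40 and 0.53 on the log2 scale at 2 h of BMH-21 and CX-5461, the largest falls of the 10 at that time (adjusted p 2.5e-06 and 3.7e-08). It was lower by 1.23 ± 0.05 and 1.07 ± 0.05 at 4 h, and rose again by 0.45 ± 0.05 and 0.69 ± 0.05 from 4 to 8 h (adjusted p 1.4e-07 and 2.7e-10).

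Rif1 read 8.85, 8.90 and 8.81 in untreated libraries. With BMH-21 it read 8.41, 8.50 and 8.50 at 2 h, 7.73, 7.80 and 7.60 at 4 h, and 8.48, 8.16 and 8.53 at 8 h. With CX-5461 it read 8.50, 8.57 and 8.51 at 2 h, 7.94, 8.14 and 8.08 at 4 h, and 8.38, 8.41 and 8.31 at 8 h. It too was lowest at 4 h, and its 8 h libraries lay between the 4 h and the untreated ones. Rif1 fell by 0.39 and 0.33 on the log2 scale at 2 h of BMH-21 and CX-5461 and by 1.14 ± 0.07 and 0.80 ± 0.07 at 4 h. It rose by 0.68 ± 0.07 and 0.31 ± 0.07 from 4 to 8 h (adjusted p 8.8e-09 and 5.2e-04), and at 8 h it was at 72.5% and 71.3% of the untreated level. After quantile normalization both calls at 8 h ended and the first turned sign (0.06 and -0.04 for BMH-21 and CX-5461, adjusted p 0.49 and 0.65).

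Dppa2 and Dppa4, the activators, fell with both inhibitors, in libraries that held more Dux reads than the untreated ones. Dppa2 read 7.30, 7.27 and 7.29 in untreated libraries. With BMH-21 it read 7.16, 7.26 and 7.22 at 2 h, 6.48, 6.51 and 6.41 at 4 h, and 5.96, 5.85 and 5.87 at 8 h. With CX-5461 it read 7.07, 7.08 and 7.04 at 2 h, 6.52, 6.57 and 6.39 at 4 h, and 6.86, 6.75 and 6.85 at 8 h. On these centred values all treated libraries lay below the untreated ones, and the inhibitors overlapped at 4 h but not at 8 h. As deposited, the 2 h libraries of BMH-21 overlapped the untreated ones. Dppa2 fell by 0.82 and 0.80 on the log2 scale at 4 h of BMH-21 and CX-5461, each with SE 0.05 (adjusted p 5.7e-14 and 1.2e-13). From 4 to 8 h it fell by a further 0.57 with BMH-21 (adjusted p 9.5e-11) and rose by 0.33 with CX-5461 (adjusted p 1.5e-06), ending at 38.0% and 72.3% of the untreated level.

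Dppa4 showed the same division with smaller changes. It read 7.49, 7.59 and 7.49 in untreated libraries, 7.001, 6.99 and 7.05 at 4 h of BMH-21 and 7.05, 7.04 and 6.99 at 4 h of CX-5461. At 8 h it read 6.62, 6.69 and 6.60 under BMH-21 and 7.26, 7.22 and 7.28 under CX-5461. Dppa4 fell by 0.51 and 0.49 on the log2 scale at 4 h; from 4 to 8 h it fell by a further 0.38 with BMH-21 and rose by 0.23 with CX-5461 (adjusted p 4.9e-09 and 1.6e-05). Within a library, Dppa2 minus Dppa4 was -0.23 ± 0.07 (log2, SD, n = 3) in untreated cells. It was -0.55 ± 0.08 and -0.74 ± 0.09 at 4 and 8 h of BMH-21 and -0.53 ± 0.06 and -0.43 ± 0.04 at 4 and 8 h of CX-5461. All 12 of these libraries lay below the untreated ones. The fold change of Dppa2 was the lower of the pair by 0.31, 0.51, 0.30 and 0.20 in those 4 groups, and by 0.29, 0.59, 0.32 and 0.23 after quantile normalization.

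Scaling bears most on the 8 h libraries of CX-5461, since the deposited scaling sets them high. Over all genes tested, 4301 rose and 6550 fell at 8 h of CX-5461; as deposited 5154 rose and 2091 fell, and with median-ratio factors 5158 rose and 5174 fell. At 2 h of CX-5461 the 2310 that rose and 2616 that fell became 1093 and 3003 as deposited, and 2756 and 1881 with median-ratio factors. At 4 h of BMH-21 4718 rose and 6081 fell, against 3234 and 6592 as deposited. At 4 h of CX-5461 4178 rose and 6699 fell, against 2899 and 7504 as deposited. On the deposited values 5 of the 10 regulators passed the test at 8 h of CX-5461 in place of 9. Chaf1b (-0.17, adjusted p 0.19), Zmym2 (-0.16, adjusted p 0.23), Dppa4 (-0.05, adjusted p 0.71) and Smchd1 (0.05, adjusted p 0.76) were then without a call. After quantile normalization, Zmym2 (-0.12), Rif1 (-0.04), Dppa4 (0.03) and Smchd1 (0.04) had none. Trim28, Setdb1, Lin28a and Dppa2 were lower at 8 h of CX-5461 under every scaling tried.

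Set directly against each other, the inhibitors differed in more regulators at later times, and in more of all genes tested. The counts of regulators at 2 and 4 h were near the shares over all genes. At 2 h, 1 of the 10 regulators differed between them (15.4% of all genes tested, 7.83% higher with BMH-21), and at 4 h 4 of the 10 (45.8%, 18.5% lower and 27.4% higher). The 2 h difference was in Dppa2, higher with BMH-21 by 0.15 (adjusted p 0.024). At 4 h Trim28 was higher with BMH-21 by 0.15, and Chaf1b (-0.11), Zmym2 (-0.16) and Rif1 (-0.34) were lower. On the deposited values these calls, apart from that of Rif1, were lost with differences of similar or larger size: 0.22 for Dppa2 at 2 h, and 0.16 for Trim28, -0.10 for Chaf1b and -0.15 for Zmym2 at 4 h (adjusted p 0.33, 0.24, 0.53 and 0.37). The call for Trim28 was also lost with median-ratio factors (0.095, adjusted p 0.072) and after quantile normalization (0.0, adjusted p 1.0), and that for Dppa2 in the same way (0.12 and 0.11, adjusted p 0.074 and 0.13). With no filter Chaf1b (-0.08) and Zmym2 (-0.13) were without a call. Over all genes, 1149 were higher and 1112 lower with BMH-21 at 2 h, against 362 and 223 as deposited and 803 and 1405 with median-ratio factors. At 4 h 4012 were higher and 2707 lower, against 2580 and 3536 with median-ratio factors and 2994 and 3145 after quantile normalization. The call for Dppa2 was also lost without BMH-21 replicate 2 or 3 or CX-5461 replicate 1 or 3 (0.13 to 0.15). That for Chaf1b was lost without CX-5461 replicate 1 (-0.09), and that for Zmym2 without BMH-21 replicate 3 (-0.11) or CX-5461 replicate 2 or 3 (-0.14 and -0.13).

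At 8 h, 8 of the 10 regulators were lower with BMH-21 than with CX-5461 (71.7% of all genes tested passed, 40.6% lower). Over all genes 4559 were higher and 5954 lower with BMH-21, and as deposited 1754 were higher and 9861 lower. The differences were -1.45 ± 0.05 (log2, SE) for Lin28a, -0.93 ± 0.05 for Dppa2, -0.62 ± 0.04 for Dppa4, -0.56 ± 0.04 for Trim28 and -0.53 ± 0.04 for Setdb1. Those of Chaf1b (-0.41), Zmym2 (-0.40) and Smchd1 (-0.30) were smaller. Rif1 (0.02, 95% interval -0.12 to 0.17) and Chaf1a (-0.03, -0.16 to 0.10) did not pass. Without BMH-21 replicate 2, Rif1 was higher with BMH-21 by 0.14 (adjusted p 0.022), and as deposited it was lower by -0.40 (adjusted p 6.3e-04). Chaf1a too was lower with BMH-21 as deposited (-0.46, adjusted p 4.1e-05). Dux was higher with BMH-21 at 8 h by 1.81 ± 0.32 (adjusted p 2.2e-05).

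**Figure D4:**
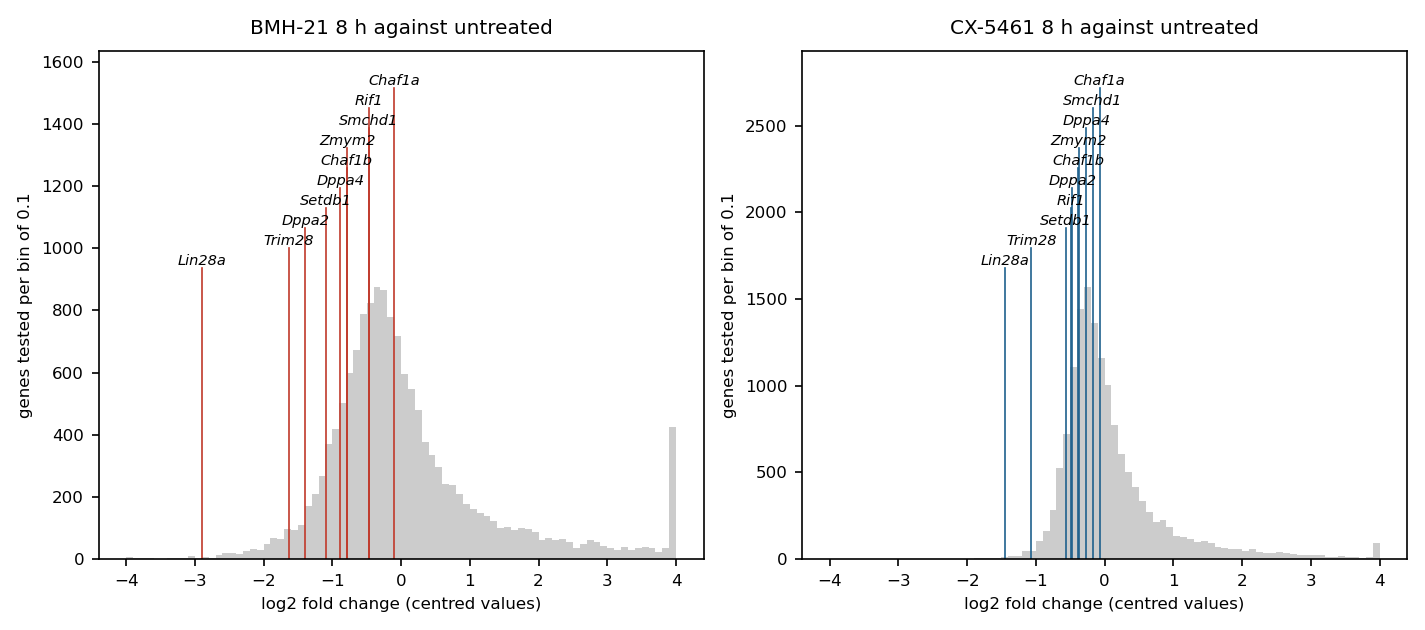
Distribution of log2 fold changes against untreated at 8 h (x axis, centred values) over the 14666 genes tested, as genes per bin (y axis); values beyond the ends of the axis are pooled in the outermost bins, and vertical lines mark the 10 regulators. Lin28a lies at the lower edge with both inhibitors, at -2.90 and -1.45, while Chaf1a and Smchd1 lie in the bulk of the genes.

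The time at which a regulator first passed the test against untreated differed between genes. With BMH-21, Lin28a, Smchd1, Zmym2, Rif1 and Dppa4 passed at 2 h, and Trim28, Setdb1, Chaf1b and Dppa2 first passed at 4 h. With CX-5461, Setdb1, Lin28a, Zmym2, Rif1, Dppa2 and Dppa4 passed at 2 h, and Trim28, Smchd1 and Chaf1b at 4 h. A gene without a call at 2 h may still have moved, since a missing call does not show a lack of change. At 2 h of BMH-21, Trim28 and Setdb1 were at -0.07, Dppa2 at -0.08 and Chaf1b at 0.03 (adjusted p 0.22, 0.20, 0.20 and 0.53). At 2 h of CX-5461, Trim28 was at -0.07, Smchd1 at -0.16 and Chaf1b at 0.05 (adjusted p 0.23, 0.058 and 0.30). As deposited the call for Dppa4 at 2 h of BMH-21 was lost with a larger difference (-0.27, adjusted p 0.054, against -0.20). That for Smchd1 at 2 h of BMH-21 (-0.18, adjusted p 0.026) was lost as deposited, with no variance trend and on leaving out some single libraries. Whether early and late calls differ between genes was not tested. Time points this far apart do not order events within an interval, and an earlier call also depends on the spread of a gene.

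From 2 to 4 h, when Dux was higher at the later time by 2.87 under BMH-21 and 2.40 under CX-5461 (log2, no test), 9 of the 10 regulators fell with each inhibitor (68.2% and 67.0% of all genes tested passed, 39.3% and 40.2% lower). For Smchd1 with CX-5461 (-0.24, adjusted p 0.0022) that call was lost as deposited (-0.25, adjusted p 0.062) and after quantile normalization (-0.12, adjusted p 0.087). From 4 to 8 h of BMH-21, 6 fell and Zmym2 and Rif1 rose (70.5% of all genes passed, 42.2% lower and 28.3% higher). Over all genes 4151 rose and 6183 fell in that step, against 5380 and 4770 with median-ratio factors, where Smchd1 rose too (0.15, adjusted p 0.044), as it did after quantile normalization (0.16, adjusted p 0.030). From 4 to 8 h of CX-5461, Trim28, Lin28a and Chaf1b fell and 5 rose, which were Smchd1, Zmym2, Rif1, Dppa2 and Dppa4 (57.8% of all genes passed, 32.0% lower and 25.8% higher). Rises are the rule in that step on the deposited values, where 8626 genes rose and 712 fell in place of 3790 and 4687. As deposited the step was -0.16 for Trim28 (adjusted p 0.12), 0.06 for Lin28a (adjusted p 0.63) and 0.21 for Chaf1b (adjusted p 0.071).

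A test added after seeing the data asked whether the step from 4 to 8 h differed between the inhibitors. It did for 8 of the 10 regulators, where 60.2% of all genes tested passed. For Lin28a, Dppa2, Trim28, Dppa4, Setdb1, Chaf1b and Zmym2 the BMH-21 step was the lower, by 1.47 to 0.24 on the log2 scale, and for Rif1 it was the higher by 0.37. Apart from Rif1 (-0.07, adjusted p 0.69), these differences also passed on the deposited values. That scaling lowers the difference by the same amount for every gene, so passing there adds no support. Smchd1 (-0.63, adjusted p 4.0e-04) and Chaf1a (-0.49, adjusted p 0.0024) passed there too. No other scaling was tried for this contrast. From 2 to 4 h, Zmym2 and Rif1 differed (-0.29 for both), a count near the 16.8% of all genes that passed. On the deposited values neither passed, though the differences were larger (-0.35 for both, adjusted p 0.30 and 0.28).

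Genes whose 7 group means followed a regulator most closely were looked for by the root mean square difference in log2, after each gene was set relative to its own mean. The nearest to Lin28a were Slc7a3 (0.13), Pcbp4 (0.15) and Hesx1 (0.16), where the median gene differed by 0.89. The nearest to Trim28 were Eif2s2 (0.04), Dnmt3l (0.04) and Nek3 (0.05), against a median of 0.55. The nearest to Dppa2 were St6gal1 (0.04), Slc25a12 (0.06) and Nupr1 (0.06), against a median of 0.44. Among the regulators themselves the nearest pair was Setdb1 and Chaf1b (0.11), while Zmym2 and Rif1 differed by 0.14 and Dppa2 and Dppa4 by 0.20.

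Partners of the regulators were described from 8 lists holding 60 genes, all of them tested. At 2, 4 and 8 h of BMH-21, 11, 42 and 47 of the 60 fell and 6, 5 and 7 rose. At 2, 4 and 8 h of CX-5461, 14, 47 and 47 fell and 3, 4 and 3 rose. Of all genes tested, 17.5%, 41.5% and 51.3% fell and 18.6%, 32.2% and 33.3% rose at 2, 4 and 8 h of BMH-21, while 17.8%, 45.7% and 44.7% fell and 15.8%, 28.5% and 29.3% rose at those times of CX-5461. The falls at 2 h of BMH-21 are thus near the share over all genes. Their median at 8 h was -0.62 (log2 fold change) for BMH-21 and -0.42 for CX-5461, where all genes tested had -0.19 and -0.11.

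Among other CAF-1 partners and histone chaperones, 8 of 8 fell at 8 h of BMH-21 and 7 of 8 at 8 h of CX-5461. For this and each list that follows, the share of all genes that fell at 8 h was 51.3% with BMH-21 and 44.7% with CX-5461. The largest falls were those of the chromatin remodeller Atrx with BMH-21 (-1.26 ± 0.08, log2, SE) and of the histone chaperone Nasp with CX-5461 (-0.60 ± 0.04). Of 9 partners of TRIM28 and SETDB1, including the HUSH silencing complex, 8 fell with each inhibitor. Cbx3 (-1.76 with BMH-21) and Cbx1 (-0.84 with CX-5461), which encode HP1 proteins that bind methylated histone H3, fell most. Atf7ip, which stabilizes SETDB1, rose by 0.17 with BMH-21 (adjusted p 0.048). That is smaller in size than the -0.21 by which the deposited scaling moved the median gene there. The partner lists were read on centred values only, with no other scaling tried.

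In the SUMO pathway, through which TRIM28 and ZMYM2 act, 9 of 11 genes fell and 2 rose with each inhibitor at 8 h. Sumo2 fell most, by 1.17 and 0.78 on the log2 scale with BMH-21 and CX-5461, and the SUMO ligase genes Pias1 (0.44, BMH-21) and Pias3 (0.34, CX-5461) rose most. Of 8 genes of PRC1.6, a Polycomb complex that silences germline genes, 6 fell with each inhibitor, led by its defining subunit Pcgf6 (-1.21 and -0.56). Of 9 genes of the LSD1, CoREST and G9a group, 8 fell with each, and the CoREST subunit gene Rcor2 fell by 2.48 and 1.10 on the log2 scale.

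The LIN28, nucleolin and let-7 list was mixed. At 8 h, 2 of its 5 genes fell with each inhibitor, near the share of all genes, and 2 rose with BMH-21 and 0 with CX-5461. Lin28b, the paralog of Lin28a, fell by 1.80 ± 0.07 and 0.68 ± 0.07 on the log2 scale, and the uridylyltransferase gene Zcchc6 (Tut7) rose by 0.60 with BMH-21. Of 6 genes of DNA methylation maintenance and of SMCHD1 and RIF1 partners, 3 fell with BMH-21 and 4 with CX-5461, the former count near the share of all genes. The phosphatase subunit gene Ppp1cc (-0.97, BMH-21) and Uhrf1 (-0.67, CX-5461) fell most, and Lrif1 rose with both (0.28 and 0.25). Of 4 other genes reported to raise Dux, 3 fell with each inhibitor, Trp53 most with BMH-21 (-1.17 ± 0.03) and Chek1 most with CX-5461 (-0.93 ± 0.04), while Atr rose with BMH-21 (0.30).

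**Figure D5:**
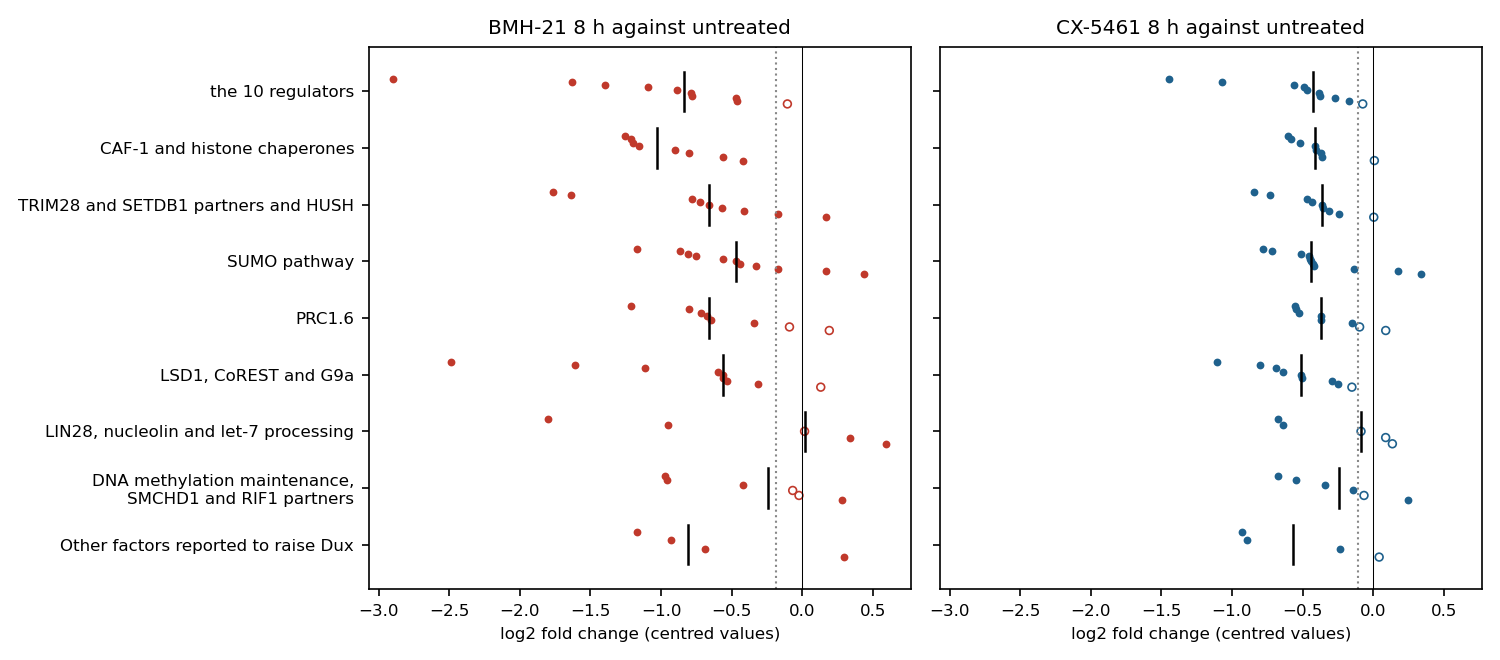
Log2 fold change against untreated at 8 h (x axis, centred values) of the 10 regulators and of each of the 8 partner lists (y axis); filled points passed the test and open points did not, short black bars are medians of a list and dotted lines the median of all genes tested. The medians of the regulators (-0.84 and -0.42) lie below those of all genes. Only the LIN28, nucleolin and let-7 list (5 genes) has a median above that of all genes with both inhibitors. With CX-5461 the gap is small (-0.09 against -0.11).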

How the data were processed

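Poly(A) RNA of E14 cells was made into directional libraries (NEBNext Ultra Directional II) after DNase treatment, per the labels' protocols. The authors deposited 1 table of log2 values per gene and library. The submitters' processing notes name the mm10 build, Trim Galore 0.5.0, TopHat2 2.1.1, R 4.0.5, DESeq2 1.30.1, edgeR 3.32.1 and limma 3.46.0, with no role or order; the counting program, its use of strand, the annotation and the filters are not given in the sources used here. The deposited log2 values returned whole reads (offset of 0.5 reads, largest deviation 1.7e-08 reads), from which depth was taken.

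Genes above a log2 of 0 in at least 3 of the 21 libraries were tested (14666; 6234 were not). Each library was shifted by 1 constant so that its median tested gene matched the mean of the 21 medians. This departs from the deposited scaling, whose factors ran from 0.832 to 1.375 where median-ratio factors ran from 0.941 to 1.107; the deposited scale was kept as an alternative. limma 3.58.1 (R 4.3.3) fitted 1 mean per group over 21 libraries, with an empirical Bayes variance trend, two-sided tests and Benjamini-Hochberg adjustment over all genes tested, at 0.05. The code was tested on simulated data. Partner differences were taken within libraries with no test. Replicate libraries differed beyond sampling noise, so none was merged.

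The 10 regulators, the 8 partner lists, the marker lists and the rule for named genes (all regulators and Dux, and per list the largest rise and fall past the threshold at 8 h) were chosen with earlier results of these data known. The comparison of steps between inhibitors was added after seeing the data. Alternatives were the deposited, median-ratio and quantile scalings, other filters and offsets, voom weights, no variance trend, only the groups compared, a replicate block and leaving out each library. RefSeq promoter windows were matched by symbol and searched for exact motif matches; no window was used for Rif1, Dppa2 and Dppa4.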

Additional observations from a re-analysis of the deposited data

Results flagged for a closer look

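The step from one time to the next differed between the inhibitors for several regulators, by an interaction contrast in the limma fit that was added after seeing the data. Of all genes tested, 60.2% passed this contrast from 4 to 8 h and 16.8% from 2 to 4 h. The count of regulators that passed from 2 to 4 h is near that share. From 4 to 8 h, Dppa2 and Dppa4 went opposite ways, falling with BMH-21 and rising with CX-5461. The BMH-21 step minus the CX-5461 step was -0.90 for Dppa2 (log2, adjusted p 4.3e-11) and -0.60 for Dppa4 (adjusted p 1.5e-09). In the same interval the difference was -1.47 for Lin28a, -0.72 for Trim28, -0.54 for Setdb1 and -0.30 for Chaf1b. It was -0.24 for Zmym2, which rose less with BMH-21, and 0.37 for Rif1, which rose more. Dux differed by 1.17 (adjusted p 0.027), and by 0.73 as deposited (adjusted p 0.070). From 2 to 4 h the difference was -0.29 for Zmym2 (adjusted p 0.012) and -0.29 for Rif1 (adjusted p 0.047), both lower with BMH-21. As deposited these 2 did not pass (adjusted p 0.30 and 0.28), at a larger difference of -0.35 for each.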

How the results depend on the processing

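Counts of regulators past the threshold moved by over 1.5 times in 4 comparisons. As deposited they were 3 in place of 5 at 2 h of BMH-21, 5 in place of 9 at 8 h of CX-5461, 0 in place of 1 between inhibitors at 2 h and 1 in place of 4 at 4 h; the cause was not tested. Between inhibitors at 2 h the count was also 0 with median-ratio factors and after quantile normalization, 2 when only the groups compared entered the fit, and 0 to 1 on leaving out 1 library. Between inhibitors at 4 h it was 2 with no filter, where centring used medians over genes that include unexpressed ones.

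Calls that turned sign were those of Lin28a (0.058), Chaf1b (0.21) and Smchd1 at 8 h of CX-5461 against untreated (0.047) as deposited, the first 2 in the step from 4 to 8 h of CX-5461. After quantile normalization they were Rif1 at 8 h of BMH-21 (0.056) and Smchd1 and Dppa4 at 8 h of CX-5461 (0.045 and 0.031).

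Values without a call that turned sign were close to 0 or those of Chaf1a. As deposited, Chaf1b was -0.043 and -0.095 at 2 h of BMH-21 and CX-5461. Chaf1a as deposited was -0.14 at 4 h of BMH-21, -0.059 at 2 h and 0.14 at 8 h of CX-5461, and 0.31 in the step from 4 to 8 h of CX-5461. Chaf1a with median-ratio factors was 0.04 at 8 h of BMH-21, 0.085 at 4 h and 0.026 at 8 h of CX-5461, and 0.014 between inhibitors at 8 h. Chaf1a after quantile normalization was 0.24 at 8 h of BMH-21, 0.19 at 4 h and 0.26 at 8 h of CX-5461, and 0.13 and 0.065 in the steps from 4 to 8 h of BMH-21 and CX-5461. Chaf1a was -0.17 at 4 h of BMH-21 with no filter, and 0.058 and 0.0067 at 4 and 8 h of CX-5461 with a filter at a log2 of 3. Rif1 between inhibitors at 8 h was -0.40 as deposited and -0.013 with no filter. From 4 to 8 h, Smchd1 with BMH-21 was -0.026 as deposited and -0.084 with no filter, Setdb1 with CX-5461 was -0.030 with no filter, and Dux with CX-5461 was 0.24 as deposited.

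On leaving out 1 library, Chaf1a ranged from -0.059 to 0.097 at 4 h of BMH-21, from -0.056 to 0.075 at 4 h and from -0.12 to 0.0075 at 8 h of CX-5461. Rif1 between inhibitors at 8 h ranged from -0.046 to 0.14, and Smchd1 from 4 to 8 h of BMH-21 from -0.041 to 0.13.

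Of 124 single-gene values, 97 kept direction and side of the threshold as deposited, 104 after quantile normalization and 116 with median-ratio factors. All 124 did with voom weights and with an offset of 5 reads. A filter at a log2 of 3 left out Dux.

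Replicate numbers did not pair the libraries: the deviations of same-numbered libraries from their group means correlated between -0.25 and 0.11, and 1 of 63 values was above 0.1. The fit with a replicate block kept all 124 calls, and its counts of regulators were those of the fit without pairing: 5, 9 and 9 at 2, 4 and 8 h of BMH-21, 6, 9 and 9 of CX-5461, and 1, 4 and 8 between inhibitors.

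Depth limits Dux, with 3 to 11 reads per untreated library, and none of the regulators.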
